A study of Mus musculus with 2 samples.

Results

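Microglia of the lateral hypothalamic area (LHA) are described here from 2 single-cell RNA libraries of the mouse hypothalamus. A barcode was taken as a microglial cell when it held 500 or more genes, at most 20% mitochondrial UMIs (unique molecular identifiers, each counting 1 captured RNA molecule), 5 or more UMIs of C1qa, C1qb, Cx3cr1, P2ry12 and Tmem119 together, at most 1 UMI of the macrophage genes Mrc1 and Pf4, and at most 2 UMIs of the endothelial genes Cldn5 and Flt1. The members were thus chosen by measured UMIs of these 9 genes, the gene count and the mitochondrial share, and these are given as descriptions only. This gate found 114 of 6906 kept cells. In the library labelled male it found 75 of 3276 kept cells, a share of 2.29%, and 39 of 3630 in the library labelled female, a share of 1.07%. The exact 95% Clopper-Pearson bounds are 1.80% and 2.86% for 2.29%, and 0.765% and 1.47% for 1.07%. These intervals, like all others below, cover counting error only, and with 1 library per label the difference in share has no test.

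The study set out to catalogue the cell classes of the LHA, a region of feeding, arousal and reward circuits. Both libraries came from C57BL/6 littermates at age 30 days, the library labelled male from a pool of 3 animals and the library labelled female from a pool of 2, after microdissection of brain slices and dissociation into single cells. No treatment, transgene or mutation separates them, so the groups compared are cell groups within each library, and the 2 libraries side by side. The 2 pools are the only replicates. The p-values below rest on the spread between these 2 pools as shared over genes, not on the spread of each gene alone.

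Microglia are the resident macrophages of the brain parenchyma. They arise from yolk sac progenitors, depend on signalling through the receptor Csf1r, and acquire their tissue identity under TGF-beta. In the resting brain they survey their surroundings through purine receptors, prune synapses with the help of complement, and clear debris through lysosomes. The perivascular macrophages along brain vessels are related cells with a different gene programme.

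The deposited matrices held 23151801 UMIs in 3439 barcodes of the library labelled male and 27437142 UMIs in 3793 barcodes of the library labelled female, of which 163 in each failed the limits on genes or mitochondrial share. The microglia contributed 230099 and 258637 of these UMIs. Sex-linked genes went against both labels within the microglia too. Xist, the RNA that silences an X chromosome in females, had 406 UMIs in microglia of the library labelled male and 8 in the library labelled female. The Y-linked genes Ddx3y, Eif2s3y, Kdm5d and Uty had no UMI in the library labelled male and 54, 17, 4 and 7 UMIs in the library labelled female. The names of the libraries are therefore used as labels only, and no direction between them is read as a difference between sexes. The libraries shared 18 cell barcodes, 0 of them microglial.

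The gate left a wide range of marker content. Microglial barcodes held 5 to 103 UMIs of the 5 marker genes in the library labelled male (median 36) and 5 to 82 in the library labelled female (median 20). Just inside the gate, at 5 to 9 marker UMIs, lay 8 barcodes in each library, and just outside it, at 3 or 4, lay 13 kept cells of the library labelled male and 29 of the library labelled female. The limit on macrophage genes kept out 10 and 9 cells that met the other terms, and the limit on endothelial genes 2 and 0. The depth of the microglia was low: the median was 2606 UMIs in the library labelled male and 3297 in the library labelled female, against 6099 and 6486 in the other kept cells.

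Not every microglial barcode held the RNA of microglia alone. Of the 75 barcodes of the library labelled male 22, and of the 39 of the library labelled female 27, carried 5 or more UMIs of the markers of another class. Neuron markers passed that level in 10 and 18 of them, oligodendrocyte markers in 8 and 4, astrocyte markers in 4 and 5, oligodendrocyte precursor markers in 1 and 2, and endothelial, mural or fibroblast markers in 0 of either library. The summed level of the 5 neuron markers (Snap25, Syt1, Stmn2, Celf4 and Nsg2) was 1052 CPM (UMIs of a gene per 1e6 UMIs of the summed cells) in microglia of the library labelled male and 3391 CPM in the library labelled female, against 3597 and 3403 CPM in the other kept cells. The remaining 53 and 12 barcodes, called single-class microglia here, held neuron markers at 350.5 and 397 CPM. Oligodendrocyte markers stood in them at 472 CPM in the library labelled male, against 1117 CPM in all its microglia. In the library labelled female they stood at 596 CPM, against 499 CPM, and were thus not lower. The limit of 5 UMIs was the same at any depth, and single-class barcodes reached only 4964 and 3297 UMIs. The part of doublets and of free RNA in the mixed barcodes was not tested. A doublet score (Scrublet) removed 6 and 3 microglial barcodes, all of them mixed. Values for single-class microglia, a division chosen after seeing the data, are given beside some of the counts and genes below.

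**Figure D1:**
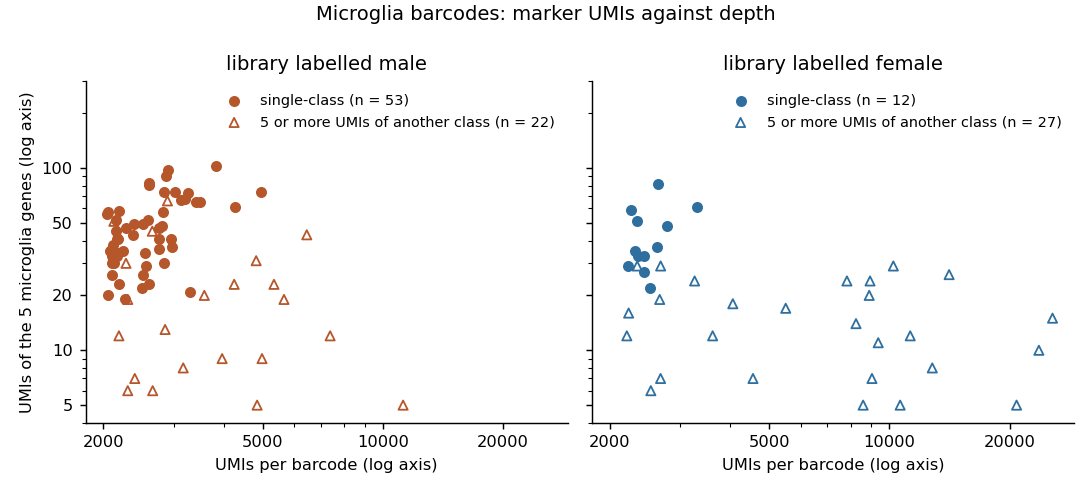
UMIs of C1qa, C1qb, Cx3cr1, P2ry12 and Tmem119 together (y axis, log scale) against all UMIs (x axis, log scale) of each microglial barcode, in the library labelled male (left, n = 75) and the library labelled female (right, n = 39). Filled circles are the 53 and 12 single-class barcodes, open triangles the 22 and 27 barcodes with 5 or more UMIs of another class; the triangles reach the greatest depths, up to 11237 and 25602 UMIs.

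The first comparison asks which genes set the microglia apart from all other kept cells of the LHA, of which neurons and oligodendrocytes were the most numerous. UMIs were summed per library and group, and microglia were tested against the other 3201 and 3591 kept cells with edgeR's quasi-likelihood test, with the library as a block and p-values adjusted by Benjamini and Hochberg over all genes tested. Of 14380 genes tested, 520 were higher (3.62%) and 48 lower (0.334%) at an adjusted p under 0.05, and the median log2 fold change over all genes was −0.19. DESeq2 called 3.25% higher and 0.0695% lower. With single-class microglia alone, 936 of 14257 genes were higher (6.57%) and 1354 lower (9.5%), with a median of −1.10. Pairs of values below belong to the libraries labelled male and female, in that order. In bulk sums of this kind a lower level per cell and fewer cells with the RNA cannot be told apart. The 9 genes of the gate chose the cells and are described without a test, and the p-values concern the contrast between gated groups, not the existence of the class.

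The gate genes themselves ranged as follows. C1qa, a chain of the complement starter C1q, was found in 75 of 75 (100%) and 38 of 39 (97.4%) microglia of the 2 libraries. P2ry12, the purine receptor that guides microglial processes, was found in 61 of 75 (81.3%) and 31 of 39 (79.5%), and Tmem119, a membrane protein that marks resident microglia, in 63 of 75 (84%) and 29 of 39 (74.4%). Among single-class microglia the shares with P2ry12 were 47 of 53 (88.7%) and 12 of 12 (100%).

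All 15 genes of a list of homeostatic microglia genes were higher in microglia, with a median log2 fold change of 7.06. They are the genes by which undisturbed microglia are usually recognised. Selplg (ENSMUSG00000048163), the selectin ligand PSGL-1, stood at 1660.2 and 387 CPM in microglia, against 2.32 and 1.92 CPM in the other kept cells. Its log2 fold change was 8.73 ± 0.77 (SE), with an adjusted p of 1.99e-27 in edgeR's test. Neuron-gated cells held 5 or more UMIs of the neuron markers and at most 2 UMIs of the microglia gate genes or of any other class, at medians of 7406 and 7462 UMIs in all, and stand for the background of free RNA for genes outside the gate. Selplg was found in 70 of 75 (93.3%) and 30 of 39 (76.9%) microglia, against 25 of 1468 (1.703%) and 14 of 1322 (1.06%) neuron-gated cells. With every cell thinned to 1900 UMIs, Selplg was found in 85.3% and 61.5% of microglia and 0.409% and 0.605% of neuron-gated cells. Gpr34, a receptor for lysophosphatidylserine, stood at 595 and 220.4 CPM in microglia, against 0.715 and 0.977 CPM in the other kept cells (log2 fold change 8.88 ± 0.67, adjusted p = 2.30e-36). In neuron-gated cells Selplg stood at 2.24 and 1.32 CPM and Gpr34 at 0.6898 and 0.378 CPM, and for both genes the microglia of both libraries lay above the other kept cells of both.

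Other members of that list had their own ranges. Siglech, a lectin that signals through DAP12, stood at 439 and 189 CPM in microglia, against 0.983 and 0.789 CPM in the other kept cells (log2 fold change 8.51). P2ry13, an ADP receptor, stood at 169 and 112 CPM in microglia, against 0.447 and 0.376 CPM in the other kept cells (log2 fold change 8.52). Sall1, the zinc finger factor that maintains microglial identity in the mouse, stood at 152 and 73.5 CPM in microglia, against 7.15 and 8.46 CPM in the other kept cells, a log2 fold change of 3.95 ± 0.51 with an adjusted p of 1.57e-12. Sall1 was found in 25 of 75 (33.3%) and 16 of 39 (41.03%) microglia, so most barcodes held no UMI of it at this depth. The smallest changes of the list were those of Sparc, Rgs10 and Sall1. Rgs10, a brake on G protein signalling, and Sparc, a matrix protein that astrocytes and endothelium express too, had log2 fold changes of 2.46 ± 0.57 and 2.30 ± 0.64, with adjusted p-values of 6.48e-04 and 0.0111. Cst3, the protease inhibitor cystatin C, stood at 27340.4 and 6109 CPM in microglia, against 619.6 and 634 CPM in the other kept cells, with a log2 fold change of 4.52 ± 1.15 and an adjusted p of 0.00309.

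The 14 called genes with the largest fold changes at 50 CPM or more, the gate genes left out, included Il1a, Ccl4, Gpr34, Selplg, Susd3, Cd180, P2ry13, Siglech, Myo1f, Il10ra, Csf3r, Rhoh and Hmha1. Being higher in both libraries was a term of the choice of these 14 and is not a finding. Il1a, the alarm cytokine interleukin-1 alpha, had 27 and 4 UMIs in microglia and 3 and 0 in the other kept cells, a ratio of 1036 (323 to 5294) over both libraries. Ccl4, a chemokine that attracts leukocytes, stood at 552 and 209 CPM in microglia, against 0.447 and 0.338 CPM in the other kept cells (log2 fold change 9.92 ± 0.70, adjusted p = 2.98e-41). Cd180, a relative of the Toll-like receptors, stood at 126 and 23.2 CPM in microglia, against 0.134 and 0.188 CPM in the other kept cells (log2 fold change 8.65). Il10ra, the ligand-binding chain of the interleukin-10 receptor, had a log2 fold change of 8.39, and Csf3r, the receptor for the granulocyte growth factor, one of 8.34. The intracellular members Myo1f, an unconventional myosin, Rhoh, a GTPase of blood cells, and Hmha1, a minor histocompatibility antigen, had log2 fold changes of 8.41, 8.22 and 8.15. Susd3, a protein with a complement-control domain, had one of 8.68.

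**Figure D2:**
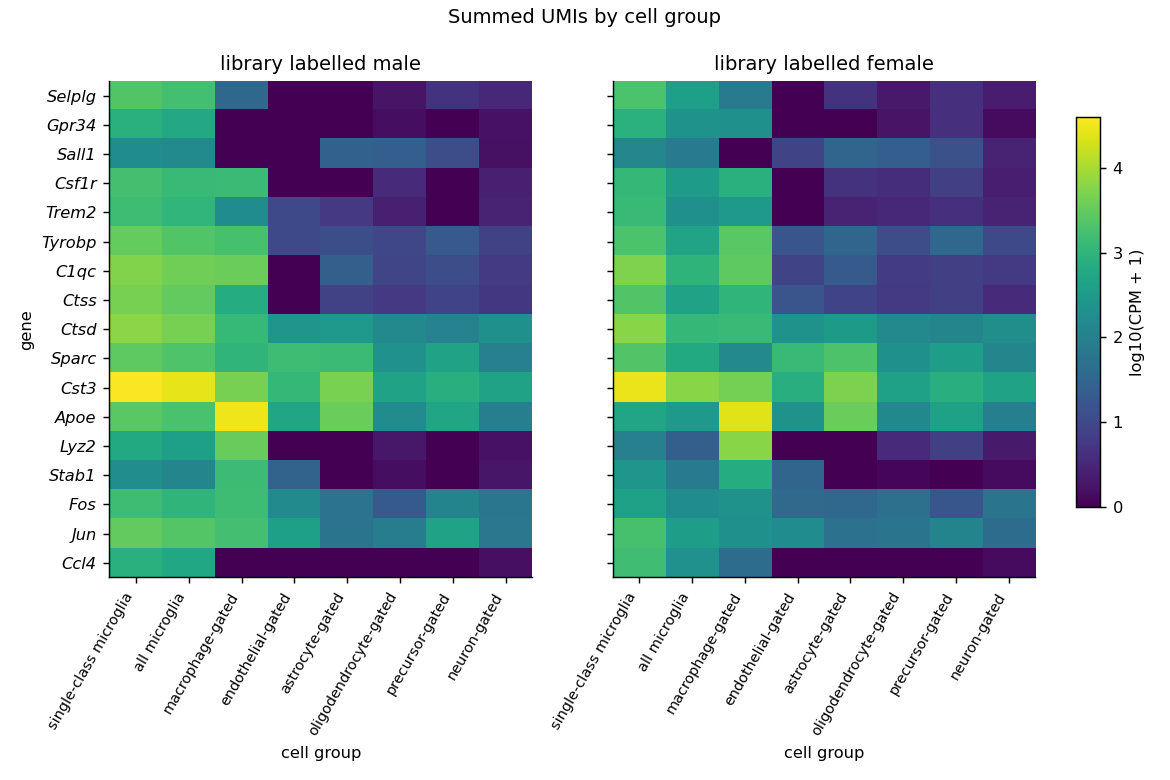
Level of 17 genes (rows) as log10(CPM + 1) of UMIs summed over each cell group (columns) in the library labelled male (left) and the library labelled female (right). Selplg, Gpr34, Trem2 and Ccl4 are brightest in single-class microglia of both libraries, Sall1 is at 0 in macrophage-gated cells, and Apoe, Lyz2 and Stab1 are brightest in macrophage-gated cells.

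The receptors that sense antibodies and damaged membranes were higher as a group. Of 12 tested genes of Fc receptors and signalling through immunoreceptor tyrosine-based activation motifs (ITAM), 10 were higher and 2, Plcg2 and Hcst, were not called, with a median log2 fold change of 6.57. In single-class microglia 11 of 12 were higher. Trem2, the lipid receptor that couples to the adaptor Tyrobp (DAP12), stood at 1086 and 201 CPM in microglia, against 2.59 and 2.67 CPM in the other kept cells (log2 fold change 7.65 ± 0.69, adjusted p = 7.73e-26). Tyrobp itself stood at 2282 and 479 CPM in microglia, against 11.4 and 16.99 CPM in the other kept cells (log2 fold change 6.4 ± 0.75), and Fcer1g, the other ITAM adaptor, at 1221 and 329 CPM in microglia, against 7.73 and 10.8 CPM in the other kept cells (log2 fold change 6.28 ± 0.67). The activating receptors Fcgr1 and Fcgr3 had log2 fold changes of 8.10 and 7.60, and the inhibitory receptor Fcgr2b one of 6.44. Cd33, a sialic acid receptor, had one of 7.62, and Inpp5d and Ptpn6, phosphatases that dampen these signals, had 6.71 and 7.02. The kinase Syk stood at 47.8 and 11.6 CPM in microglia, against 0.804 and 1.203 CPM in the other kept cells, a log2 fold change of 4.90 ± 1.24 with an adjusted p of 0.00283.

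Of 8 tested complement genes, 5 were higher and 3, C4b, Cfp and C2, were not called, with a median of 5.69. In single-class microglia 4 of 7 were higher. C1qc, the third chain of C1q and not part of the gate, stood at 3950.5 and 994 CPM in microglia, against 11.4 and 11.4 CPM in the other kept cells (log2 fold change 7.60 ± 0.85, adjusted p = 8.98e-17), and was found in 73 of 75 (97.3%) and 34 of 39 (87.2%) microglia. Itgam and Itgb2, the 2 chains of complement receptor 3, had log2 fold changes of 8.07 and 7.73. C3ar1, the receptor for the C3a fragment, had one of 6.60 ± 1.02. C4b stood at 13.04 and 0 CPM in microglia, against 5.27 and 5.23 CPM in the other kept cells, with an adjusted p of 0.975.

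In the list of CSF1 and TGF-beta signalling, Csf1r and both chains of the TGF-beta receptor were higher and the ligands of Csf1r were not called. Of 12 tested genes 7 were higher, with a median of 3.75. Csf1r, on which microglial survival depends, stood at 1329.9 and 336 CPM in microglia, against 3.53 and 4.29 CPM in the other kept cells (log2 fold change 7.59 ± 0.71, adjusted p = 5.98e-24). Its ligand Csf1 stood at 34.8 and 7.73 CPM in microglia, against 17.9 and 19.2 CPM in the other kept cells (adjusted p = 0.966). Its other ligand Il34 stood at 13.04 and 19.3 CPM in microglia, against 19.9 and 20.4 CPM in the other kept cells (adjusted p = 0.976). Tgfbr1, the signalling chain of the TGF-beta receptor, stood at 778 and 375 CPM in microglia, against 14.2 and 13.9 CPM in the other kept cells (log2 fold change 5.42 ± 0.60), and Tgfbr2, the chain that binds the ligand, had a log2 fold change of 3.12 ± 0.54. Tgfb1, the ligand, and Nrros, which holds latent TGF-beta on the microglial surface, had log2 fold changes of 4.38 ± 0.53 and 5.26 ± 0.70. The intracellular Smad3 and Smad7 were not called, with adjusted p-values of 0.155 and 0.984.

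Transcription factors of the myeloid lineage showed the same direction. Of 13 tested factors, 10 were higher and 3 were not called, with a median of 4.78. In single-class microglia 11 of 13 were higher. Spi1, which encodes PU.1, the master factor of myeloid cells, stood at 339 and 69.6 CPM in microglia, against 0.983 and 1.32 CPM in the other kept cells (log2 fold change 7.29 ± 0.61, adjusted p = 9.60e-30). Irf8, its partner, stood at 274 and 101 CPM in microglia, against 0.7596 and 1.43 CPM in the other kept cells (log2 fold change 7.44 ± 0.60). Ikzf1, Irf5, Runx1, Cebpa and Maf had log2 fold changes of 7.69, 6.16, 5.78, 4.81 and 4.42. Mef2c and Mef2a, which neurons express too, had smaller ones of 2.85 and 1.62, with adjusted p-values of 1.24e-06 and 0.0206. Cebpb, Fli1 and Bhlhe41 were not called.

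PU.1 binds purine-rich sequences such as GAGGAAGT, and the promoters of called genes were searched for these 8 letters on either strand in the 250 bases upstream of the annotated start (RefSeq, build GRCm38.p6). The 8 letters occurred in 36 of 395 matched genes called higher in microglia (9.11%), in 290 of 10742 matched genes tested (2.70%), and in 755 of all 27025 promoters of the table (2.79%). They occurred in 0 of 8 matched genes among the 14 named above, in 0 of 12 homeostatic genes, and in 2 of 12 genes of Fc receptors and ITAM signalling. A match is a run of letters and not a measured binding site. The sequences shown are those of the 4 called genes with the motif and the highest fold changes, and of 2 chains of C1q, 1 with and 1 without the letters; they run 5′ to 3′ on the gene's own strand, with the motif in capitals. Adora3 lies at chr3:105904171-105904420, + strand, BC035044 at chr6:128891125-128891374, - strand, Vav1 at chr17:57278850-57279099, + strand, Slamf9 at chr1:172475110-172475359, + strand, C1qc at chr4:136892915-136893164, - strand and C1qb at chr4:136886201-136886450, - strand.
Adora3: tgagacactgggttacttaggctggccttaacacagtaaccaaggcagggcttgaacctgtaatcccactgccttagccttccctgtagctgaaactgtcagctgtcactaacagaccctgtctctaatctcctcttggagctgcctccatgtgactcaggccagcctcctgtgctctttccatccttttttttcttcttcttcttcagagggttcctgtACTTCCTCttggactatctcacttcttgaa
BC035044: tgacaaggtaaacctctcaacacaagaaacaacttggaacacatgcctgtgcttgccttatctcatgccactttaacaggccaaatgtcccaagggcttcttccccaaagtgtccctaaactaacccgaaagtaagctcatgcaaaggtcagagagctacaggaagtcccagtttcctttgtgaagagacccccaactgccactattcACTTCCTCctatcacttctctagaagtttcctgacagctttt
Vav1: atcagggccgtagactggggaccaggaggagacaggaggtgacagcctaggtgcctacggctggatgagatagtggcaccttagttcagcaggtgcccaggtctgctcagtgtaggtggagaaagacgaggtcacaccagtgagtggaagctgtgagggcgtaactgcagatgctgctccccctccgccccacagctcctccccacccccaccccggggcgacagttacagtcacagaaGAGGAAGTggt
Slamf9: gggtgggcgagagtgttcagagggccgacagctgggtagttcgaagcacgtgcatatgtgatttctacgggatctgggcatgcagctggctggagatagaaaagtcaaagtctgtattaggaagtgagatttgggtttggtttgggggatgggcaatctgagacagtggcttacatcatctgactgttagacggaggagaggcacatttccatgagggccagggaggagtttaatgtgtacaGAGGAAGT
C1qc: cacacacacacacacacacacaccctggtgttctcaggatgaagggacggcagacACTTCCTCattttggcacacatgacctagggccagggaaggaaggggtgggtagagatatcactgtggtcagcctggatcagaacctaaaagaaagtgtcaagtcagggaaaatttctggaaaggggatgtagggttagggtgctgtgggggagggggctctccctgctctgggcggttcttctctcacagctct
C1qb: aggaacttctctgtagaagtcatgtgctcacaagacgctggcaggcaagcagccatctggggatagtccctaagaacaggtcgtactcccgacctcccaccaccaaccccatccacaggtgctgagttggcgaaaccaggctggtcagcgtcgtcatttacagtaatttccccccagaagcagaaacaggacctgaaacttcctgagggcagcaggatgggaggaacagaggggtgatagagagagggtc

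These windows differ in where the letters sit. In Slamf9, a receptor of the SLAM family, and Vav1, an exchange factor for small GTPases in blood cells, the motif began 8 and 11 bases before the start, on the gene's strand. In Adora3, the adenosine A3 receptor, and BC035044 it began 30 and 42 bases before the start, on the opposite strand. In C1qc it lay farther out, 195 bases before the start and on the opposite strand. Vav1 stood at 65.2 and 7.73 CPM in microglia, against 0.134 and 0.0752 CPM in the other kept cells, a log2 fold change of 8.22 ± 1.61. Slamf9 stood at 73.9 and 11.6 CPM in microglia, against 0.0894 and 0.1504 CPM, a log2 fold change of 8.18 ± 1.37. C1qb, a gate gene whose window held no match, is shown for contrast with C1qc, whose window held 1. No match says only that these letters are not in this window.

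Lysosomal genes were higher in part. Of 17 tested genes of phagocytosis and the lysosome, 11 were higher and 6 were not called, with a median of 3.22. In single-class microglia 16 of the 17 were higher. Ctsd, the lysosomal protease cathepsin D, stood at 4542 and 1179 CPM in microglia, against 193 and 186 CPM in the other kept cells (log2 fold change 3.77 ± 0.76, adjusted p = 3.35e-05). Lgmn, an asparaginyl protease, stood at 1778 and 425 CPM in microglia, against 109 and 102 CPM in the other kept cells (log2 fold change 3.22 ± 0.63), and Laptm5, a lysosomal membrane protein of blood cells, at 1017 and 359.6 CPM in microglia, against 3.57 and 4.51 CPM in the other kept cells (log2 fold change 7.39 ± 0.68). Ctss, cathepsin S of the homeostatic list, stood at 3159.5 and 445 CPM in microglia, against 6.39 and 6.09 CPM in the other kept cells (log2 fold change 7.74 ± 0.82). Mertk, a receptor for the engulfment of dying cells, had a log2 fold change of 4.87 ± 0.55, while its relative Axl stood at 34.8 and 3.87 CPM in microglia, against 7.42 and 9.59 CPM in the other kept cells and was not called. Lamp1, a lysosomal membrane protein of most cells, stood at 682 and 259 CPM in microglia, against 305 and 279 CPM in the other kept cells (adjusted p = 0.8203). Ctsb, cathepsin B, stood at 1239 and 479 CPM in microglia, against 377 and 374 CPM in the other kept cells (adjusted p = 0.451).

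Receptors for nucleotides and microbial products followed. Of 8 genes of purine and noradrenaline sensing 7 were higher and P2rx4 was not called, with a median of 6.82. P2ry6, the UDP receptor that triggers phagocytosis, stood at 274 and 88.9 CPM in microglia, against 0.402 and 1.13 CPM in the other kept cells (log2 fold change 7.90 ± 0.62). Adora3 had 11 and 4 UMIs in microglia and 0 and 1 in all other kept cells, a ratio of 1503 with a wide interval (231 to 63286). Of 11 tested genes of pattern recognition, 9 were higher and Tlr3 and Myd88 were not called, with a median of 6.93. Ly86, the partner of Cd180, stood at 891 and 224 CPM in microglia, against 1.47 and 3.35 CPM in the other kept cells (log2 fold change 7.78 ± 0.69), and Cd14, a co-receptor for endotoxin, at 282 and 27.1 CPM in microglia, against 0.447 and 0.677 CPM in the other kept cells (log2 fold change 7.69 ± 0.68). The receptors Tlr2, Tlr4, Tlr7 and Tlr13 had 9 to 13 UMIs each over both libraries and log2 fold changes of 5.93, 6.93, 6.71 and 7.21. Nlrp3, the inflammasome sensor, had 11 and 4 UMIs in microglia and 0 and 3 in the other kept cells, a ratio of 501 (142 to 2700.4).

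Of 11 tested chemokines and cytokines, 10 were higher and Il18 was not called, with a median of 7.08. Ccl3, a relative of Ccl4, stood at 239 and 108 CPM in microglia, against 1.21 and 0.752 CPM in the other kept cells (log2 fold change 7.56 ± 0.59). The chemokine Ccl9 stood at 256 and 96.7 CPM in microglia, against 0.581 and 1.17 CPM in the other kept cells (log2 fold change 7.68 ± 0.61). Ccl12, a monocyte chemokine of the mouse, stood at 261 and 42.5 CPM in microglia, against 0.7596 and 1.17 CPM in the other kept cells (log2 fold change 7.08 ± 0.62). Ccl3 or Ccl4 was found in 26 of 75 microglia of the library labelled male (34.7%, 24.04 to 46.5) and in 8 of 39 of the library labelled female (20.5%, 9.30 to 36.5). In single-class microglia it was found in 22 of 53 (41.5%, 28.1 to 55.9) and 4 of 12 (33.3%, 9.92 to 65.1). The 3 highest barcodes held 50% and 73.2% of all Ccl3 and Ccl4 UMIs, with up to 53 and 43 UMIs in 1 barcode. Ccl4 was found in 6 of 1468 (0.409%) and 4 of 1322 (0.303%) neuron-gated cells, and in 0 astrocyte-gated or endothelial-gated cells. Among the other cytokines, Il1b had 9 and 0 UMIs in microglia and 0 and 28 in the other kept cells, and its log2 fold change of 5.68 ± 1.83 (adjusted p = 0.0497) rested on the library labelled male; neither DESeq2 nor the test without 3 barcodes high in MHC class II called it.

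Of 12 genes that mark microglia around plaques and in neurodegeneration, 11 were in the files and 7 were tested; 2 were higher, with a median of 1.64, and Clec7a was not analysed here. Cd9, a tetraspanin, stood at 487 and 112 CPM in microglia, against 41.3 and 34.6 CPM in the other kept cells (log2 fold change 2.83 ± 0.52, adjusted p = 3.75e-06). Lgals3, a galactoside-binding lectin, had 26 and 1 UMIs in microglia, from 4 and 1 barcodes, and a log2 fold change of 5.51 ± 0.89. Apoe, the lipid carrier, stood at 1869 and 313 CPM in microglia, against 276 and 279.9 CPM in the other kept cells, and was not called (log2 fold change 1.64 ± 0.64, adjusted p = 0.191). In single-class microglia Apoe was higher, by 2.37 with an adjusted p of 5.32e-07 in edgeR's test. The 3 barcodes high in MHC class II were among them, with 111 of the 364 Apoe UMIs of the library labelled male. Single-class microglia without these 3 were not tested. In single-class microglia 4 of the 7 were higher (Cd9, Lgals3, Apoe and Lpl) and Fabp5 was lower (−1.68, adjusted p = 0.021). In all microglia Lpl, Fabp5, Timp2 and Spp1 were not called; Spp1, which encodes osteopontin, had 1 UMI in 1 library and 0 in the other.

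Growth factors, heat shock genes and cell division genes gave no call in the test of all microglia. In edgeR's test 0 of 4 growth factors, 0 of 10 heat shock genes and 0 of 8 cell division genes were called, and DESeq2 called 0 of each as well. Unadjusted p-values of these genes were under 0.05 for 1, 0 and 0 of them. Igf1, a growth factor of developing microglia, stood at 21.7 and 42.5 CPM in microglia, against 24.4 and 18.98 CPM in the other kept cells (adjusted p = 0.845). The proliferation gene Mki67 had 0 and 1 UMIs and Top2a 1 and 0 UMIs in microglia. In single-class microglia Pdgfb was called higher, and Hsp90aa1 and Hsph1, 2 chaperones of the heat shock list, were called lower, at log2 fold changes of −1.71 and −2.44.

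**Figure D3:**
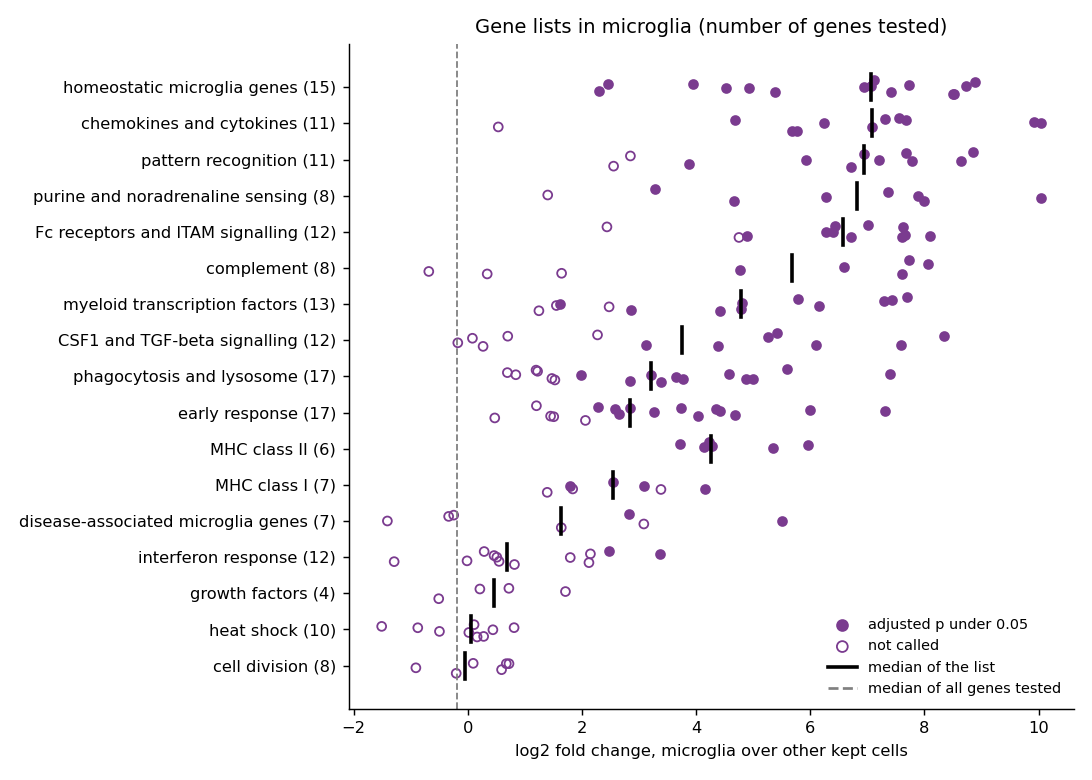
Log2 fold change of microglia over the other kept cells (x axis) for each tested gene of 17 lists (y axis, number tested in brackets). Filled points passed an adjusted p under 0.05 in edgeR's quasi-likelihood test, open points did not, black bars are list medians and the dashed line is the median of all genes tested (−0.19); genes without a UMI in microglia (Ccnb1, Ccnb2 and Hspa1b) are not drawn. The homeostatic genes are all filled, with a median of 7.06, and the heat shock genes have a median of 0.07 with none filled.

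The 10 called genes with the lowest fold changes at 50 CPM or more in the other kept cells were Hba-a2, Hba-a1, Rgs5, Hbb-bs, Oxt, Hbb-bt, Trh, Ly6c1, Itm2a and Kcna1. The globin Hbb-bs stood at 17.4 and 34.8 CPM in microglia, against 658 and 1076 CPM in the other kept cells (log2 fold change −4.94 ± 0.68, adjusted p = 4.56e-11). Rgs5, a pericyte gene, had 1 and 0 UMIs in microglia, against 2145 and 2335 in the other kept cells. Of the neuropeptide genes, Oxt had 0 and 4 UMIs in microglia, against 1247 and 5211, and Trh had 2 and 2, against 2294 and 2127. The 3 endothelial markers outside the gate (Ly6c1, Slco1a4 and Itm2a), 2 of 5 mural markers, 3 of 5 oligodendrocyte markers and all 4 globins were lower in edgeR's test. DESeq2 called 2 of 5 endothelial markers, with the gate genes Cldn5 and Flt1 counted in. It called 1 of 5 mural markers, 0 of 5 oligodendrocyte markers and 4 of 4 globins. In single-class microglia 5 of 5 endothelial, 1 of 5 mural and 5 of 5 oligodendrocyte markers were lower, and 4 of 4 globins. Of the 5 neuron markers edgeR's test called 0 in all microglia, with 0 at an unadjusted p under 0.05 and 0 called by DESeq2; their median was −0.75. All 5 were lower in single-class microglia, with a median of −3.31. Those barcodes were chosen by under 5 UMIs of the markers of each other class. Their lower levels of class markers follow from that choice and are not a finding. Agt, an astrocyte marker, was called higher in all microglia at 1.54 ± 0.49 (adjusted p = 0.0398 in edgeR's test). In single-class microglia its log2 fold change was 0.33, and astrocyte markers stood at 243 and 430.4 CPM, against 456 and 491 CPM in all microglia.

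Early response genes, which cells switch on within minutes of a stimulus, were higher in microglia. Of 17 tested genes 12 were higher and 5 were not called, with a median of 2.84, and in single-class microglia 15 of 17 were higher. Atf3, a stress-induced factor, stood at 399.8 and 23.2 CPM in microglia, against 0.938 and 0.827 CPM in the other kept cells (log2 fold change 7.30 ± 0.69, adjusted p = 8.99e-24). Zfp36, which destabilises cytokine mRNA, stood at 804 and 143 CPM in microglia, against 6.79 and 5.45 CPM in the other kept cells (log2 fold change 6.00 ± 0.62). Of the subunits of AP-1, Junb stood at 2721 and 313 CPM in microglia, against 71.6 and 36.7 CPM in the other kept cells (log2 fold change 4.35 ± 0.70). Jun stood at 2325 and 359.6 CPM in microglia, against 106 and 56.5 CPM in the other kept cells (log2 fold change 3.74 ± 0.66), and for both genes each library's microglia lay above the other kept cells. Btg2, an antiproliferative gene, had a log2 fold change of 4.69 ± 0.62. Fos and Egr1, the genes most used to mark active neurons, had log2 fold changes of 2.84 ± 0.59 and 2.59 ± 0.59, with adjusted p-values of 7.14e-05 and 4.49e-04. Klf4, Nr4a1, Fosb, Klf6 and Jund were not called.

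The early response genes varied between barcodes and libraries. In single-class microglia the 18 genes made up a median of 1.97% of the UMIs of a barcode in the library labelled male and 1.02% in the library labelled female. In mixed microglia the medians were 0.432% and 0.0898%. Macrophage-gated cells held 0.749% and 0.168%, endothelial-gated cells 0.333% and 0.270%, astrocyte-gated cells 0.0430% and 0.0399%, and neuron-gated cells 0.0584% and 0.0535%. Barcodes overlapped between these groups: single-class microglia ranged over 0.135% to 4.25% and 0.159% to 2.45%, and macrophage-gated cells over 0.156% to 2.32% and 0.100% to 1.05%. The 4 fibroblast-gated cells of the library labelled male had a summed level of 15128 CPM for the 18 genes, close to the 14220 CPM of its microglia, so a high level was not particular to microglia. Fos was found in 39 of 53 (73.6%) and 4 of 12 (33.3%) single-class microglia and 290 of 1468 (19.8%) and 206 of 1322 (15.6%) neuron-gated cells.

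**Figure D4:**
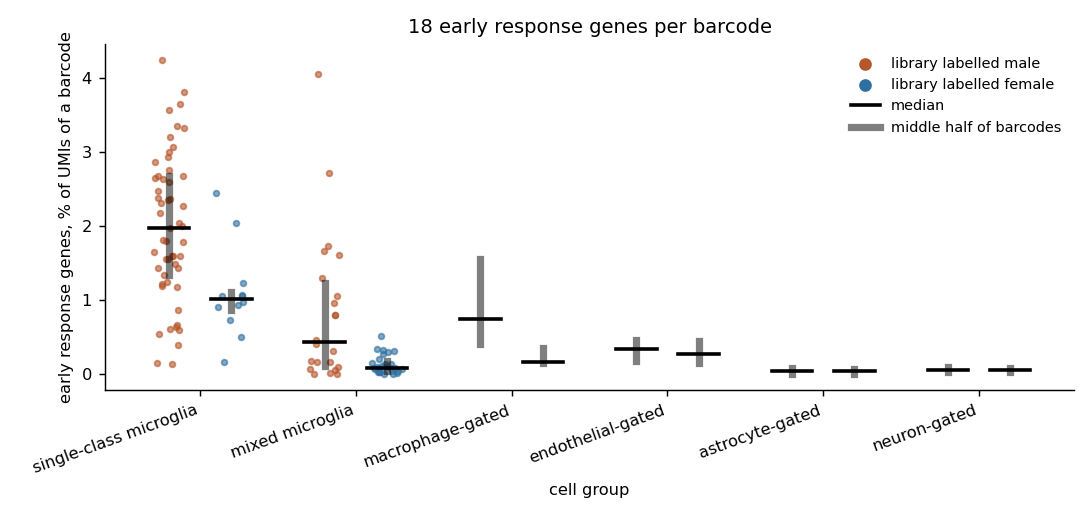
Share of the UMIs of a barcode from 18 early response genes (y axis, percent) by cell group (x axis), in the library labelled male (brown, left of each pair) and the library labelled female (blue). Points are microglial barcodes, black lines medians and grey bars the range from the lower to the upper quartile; the medians of single-class microglia are 1.97% and 1.02%, and those of neuron-gated cells 0.0584% and 0.0535%.

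Of 7 MHC class I genes, 4 were higher and 3 were not called, with a median of 2.54. In single-class microglia 5 of 7 were higher, and DESeq2 called 3 in all microglia. B2m, the invariant light chain, stood at 2259.9 and 487 CPM in microglia, against 68.8 and 62.9 CPM in the other kept cells (log2 fold change 4.16 ± 0.67, adjusted p = 5.11e-08). The heavy chain H2-K1 stood at 252 and 30.9 CPM in microglia, against 12.3 and 15.9 CPM in the other kept cells (log2 fold change 3.09 ± 0.56), and H2-D1 at 582 and 61.9 CPM in microglia, against 41.4 and 39.6 CPM in the other kept cells (log2 fold change 2.54 ± 0.57). Of 12 interferon response genes 2, Bst2 and Ifi27l2a, were higher, with a median of 0.68. Ifi27l2a had 27 and 0 UMIs in microglia and was not called without the 3 barcodes described next.

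All 6 tested MHC class II genes were called higher, but 4 of the calls rested on 3 barcodes of the library labelled male. These 3 barcodes held 103, 91 and 69 UMIs of the 7 class II genes. The other 72 microglia of that library held at most 4, and the 39 of the library labelled female at most 2. Cd74, the invariant chain, had 149 UMIs in microglia of the library labelled male, 143 of them in the 3 barcodes, and 1 UMI in the library labelled female. Without the 3 barcodes, where 3.56% of all genes were called higher and 0.313% lower, 2 of 6 class II genes were called and the list median was 0.09. DESeq2 also called 2 of 6 with all barcodes. The genes that lost their call without them were H2-Aa, H2-Ab1, H2-Eb1 and Cd74.

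The 3 barcodes differed from the other microglia in genes outside class II. They were chosen after their values were seen, so no test is given, and they are given no cell type name. Ccr2, a chemokine receptor of monocytes, had 3, 3 and 2 UMIs in them and 0 in the other 72. Lyz2, the lysozyme of macrophages and granulocytes, had 24, 25 and 15 UMIs, which is 64 of the 90 UMIs in microglia of that library. P2ry12, Sall1 and Siglech had 0 UMIs in all 3, and Tmem119 had 0, 2 and 0. Selplg had 2, 0 and 1 UMIs, a summed level of 338 CPM, against 1713 CPM in the other 72. C1qa stood at 3833 CPM in the 3 barcodes and 4376 CPM in the other 72, and C1qa and C1qb alone carried each of them past the gate. Apoe stood at 12514 CPM in the 3 barcodes and 1442 CPM in the other 72. Cxcl2, a neutrophil chemokine, had 27 of its 38 UMIs in 1 of them.

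**Figure D5:**
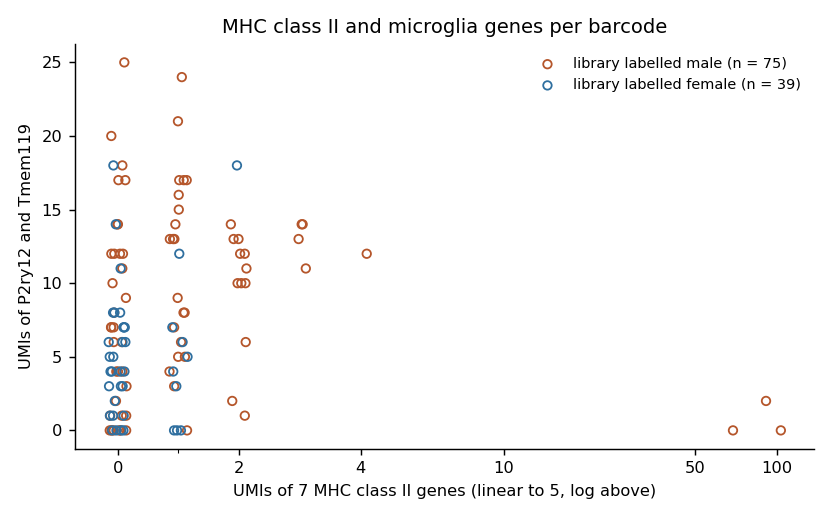
UMIs of P2ry12 and Tmem119 together (y axis) against UMIs of 7 MHC class II genes (x axis, linear to 5 and log above, points spread slightly) for each microglial barcode of the library labelled male (brown, n = 75) and the library labelled female (blue, n = 39). The 3 barcodes at 69, 91 and 103 class II UMIs have 0, 2 and 0 UMIs of P2ry12 and Tmem119.

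The microglia of the 2 libraries were also set side by side. Of them, 22 of 75 barcodes in the library labelled male and 27 of 39 in the library labelled female were mixed. With 1 library per label no test was possible, and a gene is counted here when its ratio was 2-fold or more. Over all microglia and 1685 genes with 50 or more microglial UMIs, 261 were higher in the library labelled male (15.5%) and 380 lower (22.6%). Ctss stood at 3159.5 CPM in the library labelled male and 445 CPM in the library labelled female, a ratio of 7.11 (5.83 to 8.73), and C1qc at 3950.5 CPM in the library labelled male and 994 CPM in the library labelled female, a ratio of 3.98 (3.46 to 4.58). In single-class microglia alone these contrasts were smaller: of 451 genes, 42 were higher (9.31%) and 6 lower (1.33%). Ctss then had a ratio of 1.99 (1.54 to 2.59) and C1qc one of 1.04 (0.876 to 1.25). For Gpr34, Selplg, Trem2 and Ctsd the ratios in single-class microglia were 0.956 (0.6201 to 1.52), 1.12 (0.851 to 1.502), 1.14 (0.807 to 1.65) and 1.04 (0.883 to 1.22). The intervals of these 4 genes and of C1qc included 1, which does not show that the libraries were equal.

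The 4 genes with the largest ratio in each direction over all microglia were Cd74, H2-Aa, Xist and Socs3, and Avp, Ddx3y, Parm1 and Pmch. Socs3, a feedback inhibitor of cytokine signalling, had 103 UMIs in the library labelled male and 6 UMIs in the library labelled female, a ratio of 19.3 (8.57 to 53.8). Pmch, the melanin-concentrating hormone of LHA neurons, had 107 UMIs in the library labelled male and 4318 UMIs in the library labelled female, which is 35.9 (29.6 to 43.9)-fold lower in the library labelled male. Avp, the vasopressin gene, had 3 UMIs in the library labelled male and 699 UMIs in the library labelled female. Neuron markers stood at 1052 and 3391 CPM in the same microglia, as given above. In single-class microglia the 4 lowest ratios included those of Hcrt, Nap1l5 and Hmha1, of which Hcrt, the orexin gene, had 21 UMIs in the library labelled male and 40 UMIs in the library labelled female. Hmha1 had 38 UMIs in the library labelled male and 19 UMIs in the library labelled female, a ratio of 0.432 (0.243 to 0.794).

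Among single-class microglia some ratios between the libraries had intervals that left out 1. Among early response genes, Fos had a ratio of 3.47 (1.99 to 6.63), Dusp1, a phosphatase that dampens MAP kinases, 3.28 (1.74 to 6.99), Klf2 3.18 (1.49 to 8.105), Egr1 2.83 (1.53 to 5.79) and Ier2 2.58 (1.49 to 4.82). Junb and Jun had ratios of 1.93 (1.47 to 2.58) and 1.71 (1.295 to 2.304), and Btg2 one of 0.878 (0.661 to 1.18). Ccl4 changed direction with the choice of barcodes, from a ratio of 2.64 (1.91 to 3.71) in all microglia to one of 0.538 (0.3803 to 0.771) in single-class microglia, at 837 CPM in the library labelled male and 1556 CPM in the library labelled female. In single-class microglia 3 barcodes of each library held 91 of 166 Ccl3 and Ccl4 UMIs in the library labelled male (54.8%) and 60 of 66 in the library labelled female (90.9%). Apoe had a ratio of 4.92 (2.99 to 8.69) and H2-D1 one of 4.14 (1.85 to 11.5). The 3 barcodes high in MHC class II were all single-class and held 111 of the 364 Apoe UMIs of the library labelled male. With 12 single-class barcodes in the library labelled female, each of these ratios rests on few cells.

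A narrower comparison set microglia against endothelial-gated cells, another small class of the same libraries (25 and 27 cells). They held 5 or more UMIs of endothelial markers and at most 2 of the microglia gate genes or of each other non-neuronal class. Neuron markers were not limited in them, and their barcodes reached 28130 and 22886 UMIs. Of 3768 genes tested, 140 were higher in microglia (3.72%) and 272 lower (7.22%) in edgeR's quasi-likelihood test, with a median log2 fold change of 0.02. DESeq2 called 33 higher (0.876%) and 83 lower (2.2%). Without the 3 barcodes high in MHC class II, 5.33% were higher and 8.5% lower. In single-class microglia 493 of 2419 genes were higher (20.4%) and 640 lower (26.5%). Here only the microglia were limited on neuron markers, and 5 of 5 neuron markers were among the lower genes, with a median of −2.86. The part of neuronal RNA in the other lower genes was not tested. Of 14 tested homeostatic genes 13 were higher, with a median of 6.54, and Sparc, which endothelial cells express, was not called at 2121 and 622 CPM in microglia, against 1484 and 1326 CPM in endothelial-gated cells; DESeq2 called 4 of the 14.

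The 6 genes with the largest fold changes here had no UMI in the endothelial-gated cells, so each fold is a lower bound against 3 UMIs over the group. Selplg was at least 78.6-fold higher, Csf1r at least 64.1-fold, Fcer1g at least 59.7-fold, Fcrls, an Fc receptor-like gene, at least 35.2-fold, Gpr34 at least 31.6-fold and Ccl4 at least 29.5-fold. Their adjusted p-values in edgeR's test ran from 0.00014 to 0.000205, and DESeq2 called none of these 6. Tgfbr1 stood at 778 and 375 CPM in microglia, against 18.4 and 0 CPM in endothelial-gated cells (log2 fold change 6.17 ± 0.85), while Tgfbr2 stood at 113 and 38.7 CPM in microglia, against 157 and 153 CPM in endothelial-gated cells and was not called. All 6 tested genes of Fc receptors and ITAM signalling were higher in edgeR's test, and DESeq2 called 3 of the 6.

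The 6 lowest genes were Slco1a4, Hba-a1, Hba-a2, Ly6a, Igfbp7 and Car4. Slco1a4, an organic anion transporter of the blood-brain barrier, had 0 UMIs in microglia and was at least 202-fold lower. It is among the endothelial markers that chose the endothelial-gated cells, so its fold is a description and not a finding. Ly6a, Igfbp7 and Car4 were at least 115-fold, 84.5-fold and 81.1-fold lower. Of 14 early response genes tested, 6 were higher in microglia (Fos, Junb, Egr1, Ier5, Btg2 and Zfp36), and Klf4, a factor of endothelium under flow, was lower, at 34.8 and 7.73 CPM in microglia, against 230.5 and 253 CPM in endothelial-gated cells (log2 fold change −3.45 ± 0.64). DESeq2 called 4 of the 14 higher and 0 lower, so the lower level of Klf4 was a call of edgeR's test alone (adjusted p = 0.00198, against 0.0696 in DESeq2). In single-class microglia 12 of 15 early response genes were called higher and 1 lower in edgeR's test. None of the 4 MHC class I genes tested was called. B2m stood at 2259.9 and 487 CPM in microglia, against 479 and 513 CPM in endothelial-gated cells (adjusted p = 0.508). DESeq2 called 0 of these 4 as well, and 0 had an unadjusted p under 0.05 in edgeR's test. In single-class microglia 1 of 3 tested class I genes was called higher, and B2m stood at 3297 and 2053 CPM. Ifitm3, an interferon-induced membrane protein, was lower, at 56.5 and 3.87 CPM in microglia, against 442 and 459.7 CPM in endothelial-gated cells (log2 fold change −3.99 ± 0.75, adjusted p = 0.00219).

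The closest relatives in the data were the 10 and 9 cells that the limit on Mrc1 and Pf4 kept out of the microglia, called macrophage-gated cells here. Beyond Cldn5 and Flt1 they were not screened for markers of other classes. In the library labelled female 1 barcode held 18938 of their 48719 UMIs. With fewer than 10 cells in 1 library no test was run, and a gene is counted when it differed 2-fold or more in the same direction in both libraries. Of 5133 genes with 20 or more UMIs in both groups together, 520 were higher in microglia (10.1%) and 195 lower (3.8%), with a median log2 ratio of 0.25. Of 15 homeostatic genes 7 were counted higher and 0 lower, with a median of 1.82, and of 6 measured perivascular macrophage markers 6 were counted lower. The gate used the macrophage genes Mrc1 and Pf4 themselves and the 5 microglia genes on both sides.

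Tmem119 and Sall1 had no UMI in macrophage-gated cells. Tmem119, a gate gene, had 288 and 94 UMIs in microglia, and Sall1 35 and 19. Over both libraries Sall1 was at least 2.88-fold higher against 3 UMIs. Selplg stood at 1660.2 and 387 CPM in microglia, against 33.9 and 82.1 CPM in macrophage-gated cells, a ratio of 15.4 (6.56 to 47.7) over both libraries. Olfml3, a secreted matrix protein, stood at 799.7 and 159 CPM in microglia, against 67.8 and 0 CPM in macrophage-gated cells, a ratio of 18 (4.93 to 149.6) that rests on 2 UMIs in the macrophage-gated cells. Crybb1, a crystallin found in microglia, and Siglech had ratios of 5.55 (1.85 to 27.3) and 2.67 (1.37 to 5.95).

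For other microglial genes the sums of all microglia, mixed barcodes included, were closer to those of macrophage-gated cells, or lower over both libraries. Csf1r stood at 1329.9 and 336 CPM in microglia, against 1357 and 842 CPM in macrophage-gated cells, and C1qc at 3950.5 and 994 CPM in microglia, against 3697 and 2874 CPM in macrophage-gated cells. Over both libraries Tyrobp had a ratio of 0.564 (0.478 to 0.668) and Rgs10 one of 1.001 (0.743 to 1.37), but the libraries went opposite ways. Tyrobp stood at 2282 and 479 CPM in microglia, against 1831 and 2668 CPM in macrophage-gated cells. Rgs10 stood at 1017 and 329 CPM in microglia, against 475 and 759 CPM in macrophage-gated cells. Fcrls, a gene of the homeostatic list, stood at 721 and 193 CPM in microglia, against 984 and 944 CPM in macrophage-gated cells, a ratio of 0.461 (0.353 to 0.608). Gpr34 had 0 UMIs in macrophage-gated cells of the library labelled male and 205 CPM in those of the library labelled female, against 595 and 220.4 CPM in microglia. In single-class microglia Csf1r stood at 1781 and 1159 CPM, C1qc at 5415 and 5198 CPM and Fcrls at 1044 and 927 CPM. Tyrobp stood there at 3305 and 1953 CPM, Rgs10 at 1395 and 1159 CPM and Gpr34 at 823 and 861 CPM. Of 16 measured early response genes 1 was counted higher and 1 lower. Fos stood at 1039 and 170.1 CPM in microglia, against 1492 and 226 CPM in macrophage-gated cells, and at 1495 and 430 CPM in single-class microglia.

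Macrophage-gated cells carried the genes of perivascular macrophages. F13a1, coagulation factor XIII, Cbr2, a carbonyl reductase, Cd163, the haemoglobin scavenger receptor, and Lyve1, a hyaluronan receptor, had 0 UMIs in microglia and were lower there. F13a1 was at least 119-fold lower, Cbr2 at least 70.8-fold and Cd163 at least 62.5-fold, and Lyve1 had 8 and 16 UMIs in macrophage-gated cells. Dcn, a fibroblast proteoglycan, and Cd209f, a C-type lectin, were the other 2 of the 6 lowest, with 33 and 2, and 19 and 5 UMIs in macrophage-gated cells and 0 in microglia. Apoe stood at 1869 and 313 CPM in microglia, against 30524 and 24077 CPM in macrophage-gated cells, and was 25.4 (23 to 27.98)-fold lower in microglia. Lyz2 stood at 391 and 23.2 CPM in microglia, against 3358 and 6117 CPM in macrophage-gated cells, 25.8 (20.6 to 32.6)-fold lower in microglia. Stab1, a scavenger receptor, stood at 126 and 77.3 CPM in microglia, against 1424 and 718 CPM in macrophage-gated cells, 9.82 (6.78 to 14.4)-fold lower in microglia, although it was higher in microglia than in all other kept cells (log2 fold change 4.99 ± 0.53, adjusted p = 1.73e-18 in edgeR's test).

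The 6 genes with the largest ratios in microglia over macrophage-gated cells were F11r, Fam171b, Zcchc18, Usp29, Alcam and Nsg2. F11r, a junctional adhesion molecule, had 63 and 16 UMIs in microglia and 0 in macrophage-gated cells, at least 4.21-fold higher. Nsg2 is a neuron marker of the fixed lists and had 29 and 183 UMIs in microglia and 0 and 1 in macrophage-gated cells. Fam171b, Zcchc18, Usp29 and Alcam had 13 to 19 UMIs in microglia of the library labelled male and 52 to 83 in the library labelled female. In these same sums 2 of 5 neuron markers were counted higher in microglia, and with single-class microglia 179 genes were counted higher in place of 520. The part of neuronal RNA in these genes was not tested beyond that.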

How the data were processed

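Gene expression was measured by droplet single-cell RNA sequencing (10x Chromium, version 2 chemistry) in 2 libraries of dissociated LHA. The authors deposited raw UMI counts per gene and barcode; Cell Ranger 2.2.0 and the build GRCm38 (mm10) are named in the submitters' processing notes. Of 28692 gene IDs, 28339 (98.8%) were in GENCODE M21. Barcodes with 500 or more genes and at most 20% mitochondrial counts were kept, and cells were gated on raw counts. The members, gene lists and tests were chosen with earlier results of these data known.

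Counts were summed per library and cell group. Microglia were tested against other kept cells and against endothelial-gated cells with edgeR 4.0.16 (filterByExpr, TMM, quasi-likelihood test, R 4.3.3), with library as a block, since both groups of a pair came from the same pool. The 4 sums leave 1 residual degree of freedom, and the biological coefficient of variation was 32.2% and 31.0%. The prior degrees of freedom, the weight given to the trend over all genes, were infinite and 13.0. Against other kept cells a gene's own spread between the pools thus did not set its p-value. p-values were adjusted by Benjamini and Hochberg over all genes tested. SE is the log2 fold change divided by the square root of F. DESeq2 1.42.0 was the alternative count test. Ratios carry exact conditional binomial intervals and shares exact Clopper-Pearson intervals, both at 95%. A floor of 3 counts over the group was used where a group had none. The edgeR step was tested on simulated data. Doublets were scored with Scrublet (scanpy 1.11.5) at 0.8% per 1000 barcodes, as an alternative only.

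Named genes were the 14 highest and 10 lowest called at 50 CPM or more in the higher group and in the same direction in both libraries (6 each way for the other cell groups), 4 each way between libraries among genes with 50 or more UMIs, up to 4 of the most abundant members of each list, and any other member where its list is counted. The macrophage comparison was designed as a test unless a library had fewer than 10 such cells, which was the case. Other alternatives were size factors, no count filter, no block, thinning to 1900 UMIs, a 10% mitochondrial limit, other gate limits, and leaving out each library. Some named genes are not reported here.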

Additional observations from a re-analysis of the deposited data

Results flagged for a closer look

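For 3 genes the ratio of microglia to the other kept cells lay on opposite sides of 1 in the 2 libraries, with intervals that excluded 1 in each. Ifitm3 had a ratio of 2.34 in the library labelled male and 0.163 in the library labelled female. The neuron markers ran the other way: Syt1 had 0.268 and 1.17, and Nsg2 had 0.206 and 1.25.

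Against endothelial-gated cells 8 genes did the same. Among genes of antigen presentation, H2-D1 had a ratio of 2.04 in the library labelled male and 0.231 in the library labelled female, H2-K1 had 2.10 and 0.150, and Cd74 was at least 23.4-fold higher against 3 UMIs in the library labelled male and had a ratio of 0.0388 in the library labelled female. Sparc had 1.43 and 0.470, and the early response gene Ier3 had 3.21 and 0.252. The neuron markers Syt1, Celf4 and Nsg2 had ratios of 0.459, 0.374 and 0.506 in the library labelled male, and 1.69, 2.02 and 2.10 in the library labelled female. These differences between libraries were not tested, since each label has 1 library.

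Outside the cell filter, 5 barcodes of the library labelled female met the gate for microglia, against 0 in the library labelled male. They held 20.8% to 35.4% mitochondrial UMIs and 5 to 20 UMIs of the 5 gate genes.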

How the results depend on the processing

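The tests rest on 2 pools, 114 cells and 1 residual degree of freedom. Homeostatic genes kept 15 of 15 calls against other kept cells in single-class microglia, without the MHC class II barcodes and in DESeq2. Against other kept cells, 520 higher and 48 lower genes became 346 and 89 with at most 2 UMIs of other classes in a barcode, and 936 and 1354 in single-class microglia (chosen after seeing the data); lower genes numbered 10 in DESeq2 and 200 after thinning. Against endothelial-gated cells, 140 higher and 272 lower genes became 33 and 83 in DESeq2 and 493 and 640 in single-class microglia, and 281 were higher with no count filter. Without the library block, 27 genes were lower against other kept cells and 86 higher against endothelial-gated cells, and of the genes named 116 of 135 and 53 of 67 kept their side of the threshold. Of those genes, in the library labelled female alone 17 of 135 and 41 of 67 moved by more than the SD between libraries and 5 of 135 turned sign; in the library labelled male alone 7 and 25 moved. Against macrophage-gated cells, 520 higher and 195 lower genes became 182 and 89 after thinning and 179 and 79 in single-class microglia, 322 were higher at 10% mitochondrial UMIs, and single libraries gave 465 to 1050 higher and 199 to 312 lower; DESeq2, size factors, the filter and the block were not run there, since it has no test. The share of microglia in the library labelled male was 2.97% at 10% mitochondrial UMIs and 1.63% as single-class; in the library labelled female it was 1.79% at 3 or more gate UMIs and 0.333% as single-class. Between libraries, 261 higher and 380 lower genes became 83 and 42 after thinning and 42 and 6 in single-class microglia, and 198 were lower with at most 2 UMIs of other classes. Signs turned for H2-Aa (−1.09), H2-Ab1 (−0.80) and H2-Eb1 (−9.07) without the 3 MHC class II barcodes. The sign of Agt turned (−1.16) with at most 2 UMIs of other classes, a limit that counts Agt itself. Signs also turned between single libraries. H2-Aa had 9.59 in the library labelled male alone and −0.49 in the library labelled female alone. In the same order H2-Ab1 had 8.11 and −2.23, H2-Eb1 6.89 and −2.11, Cd74 7.46 and −1.56, and Ifi27l2a 3.76 and −2.03. Beyond the barcodes left out, the cause was not tested.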
